A study of Mus musculus with 6 samples.

Results

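The CXC chemokines examined here are 10 mouse genes, Cxcl1, Cxcl2, Cxcl3, Cxcl5, Ppbp, Cxcl9, Cxcl10, Cxcl12, Cxcl14 and Cxcl16, taken by name from a table of 55385 mouse genes. RNA was sequenced in bulk from PDVC57, an established mouse squamous carcinoma line of keratinocyte origin, in 6 libraries. The groups were a Sox2 knockout genotype, with 3 libraries, and a Sox2 overexpression genotype, with 3 libraries. The series' design text describes cells low or high in Sox2 that were isolated from tumours grown from grafts, and asks what Sox2 turns on in tumour stem cells to act on neutrophils. Sox2 is altered in both groups, and unmodified PDVC57 cells were not analysed here. The labels name no promoter or vector for the overexpression, no clone, no host strain and no age, and do not say whether replicates came from separate tumours or cultures. The p-values below therefore measure the spread between these libraries, which may in part be technical.

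CXC chemokines are small secreted proteins that guide leukocytes through receptors coupled to G proteins. Those with a glutamate-leucine-arginine (ELR) motif ahead of the paired cysteines, which are Cxcl1, Cxcl2, Cxcl3, Cxcl5 and Ppbp among these genes, act on Cxcr2 and recruit neutrophils. Cxcl9 and Cxcl10 lack the motif, are induced by interferons and attract T and NK cells through Cxcr3. Cxcl12 acts through Cxcr4 and is a classical product of stromal cells, Cxcl14 is made by epithelium and fibroblasts and has no settled receptor, and Cxcl16 is made as a transmembrane protein that binds Cxcr6 and is shed by proteases.

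In the mouse genome (GENCODE M21, GRCm38), 7 of the 10 genes lie on chromosome 5. A first cluster of 7 CXC ligand genes (chr5:90759360-90905938) holds the 5 of the 10 genes named above as ELR genes. It also holds Pf4 and Cxcl15, which are not among the 10. The gene of Cxcl5 spans 90759360 to 90761624, Ppbp 90768518 to 90770063, Cxcl3 90786103 to 90789600, Cxcl1 90891241 to 90893115 and Cxcl2 90903871 to 90905938, all on the plus strand. A second cluster on the minus strand (chr5:92321347-92365485) holds Cxcl9 (92321347 to 92328079), Cxcl10 (92346638 to 92348889) and Cxcl11. Cxcl12 lies on chromosome 6 (117168535 to 117181367, plus strand), Cxcl14 on chromosome 13 (56288643 to 56296551, minus strand) and Cxcl16 on chromosome 11 (70453983 to 70459984, minus strand). All 10 are protein-coding genes with 3 to 5 exons in their longest transcript. Exons of Cxcl10 overlap those of Art3 on the other strand, and exons of Cxcl16 overlap those of Zmynd15.

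Promoter sequences from RefSeq (GRCm38.p6, 250 bases before to 50 after the start) were found for 8 of the 10 genes, the exceptions being Cxcl5 and Cxcl16. The stretches below are shown because Cxcl1, Cxcl2 and Cxcl3 share a motif but differ in their values, and because Cxcl12 and Cxcl14 have the largest changes of the 10 and lack it. Each is written 5′ to 3′ along the gene, with matches to the consensus of NF-kB, the transcription factor of inflammatory signals, in capitals. The first 4 hold a match and the last 2 are the 60 bases just before the start.
Cxcl1 (chr5:90891160-90891219, plus strand): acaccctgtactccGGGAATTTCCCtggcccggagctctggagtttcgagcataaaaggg
Cxcl2 (chr5:90903788-90903847, plus strand): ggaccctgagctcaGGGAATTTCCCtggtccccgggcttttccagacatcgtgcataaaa
Cxcl3 (chr5:90786014-90786073, plus strand): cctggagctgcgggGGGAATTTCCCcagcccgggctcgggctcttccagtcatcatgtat
Cxcl10 (chr5:92348948-92349007, minus strand): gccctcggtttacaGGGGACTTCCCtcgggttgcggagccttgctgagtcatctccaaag
Cxcl12 (chr6:117168475-117168534, plus strand): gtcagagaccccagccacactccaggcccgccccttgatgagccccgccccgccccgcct
Cxcl14 (chr13:56296552-56296611, minus strand): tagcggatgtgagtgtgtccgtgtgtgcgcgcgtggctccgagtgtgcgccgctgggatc

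Cxcl1, Cxcl2 and Cxcl3 carry the same letters, GGGAATTTCCC, which begin 71, 97 and 73 bases before the start. The NF-kB motif made of GGGA and TTCC with any 2 bases between them was found on both strands of these 3 promoters at overlapping positions, and 1.47% of 32851 mouse promoters of the same length hold it on either strand. Cxcl10 holds it 159 bases before the start, and has further matches to the looser NF-kB consensus 104 and 103 bases before the start, of which the letters above are these overlapping matches. That consensus is found in 8.46% of promoters. The promoters of Ppbp, Cxcl9, Cxcl12 and Cxcl14 hold neither form. The stretches of Cxcl12 and Cxcl14 were picked by the size of their changes, and a link between the motif and the changes was not tested. The interferon-response motif, GAAA and GAAA with any 2 bases between them and found in 3.44% of promoters, is present once in Cxcl10 (GAAAGTGAAA, 213 bases before the start) and once in Cxcl14. TATAAA, found in 13.6% of promoters, is present in Cxcl3, Ppbp and Cxcl9. The promoters of Cxcl12 and Cxcl14 have a GC content of 64.7% and 62.7% with 20 and 22 CpG dinucleotides, against 3 to 11 in the other 6.

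Library totals lay between 31247976 and 38543221 counts. Sox2 itself was at 0.685 to 1.44 CPM (counts per 1e6 counts, after TMM scaling of the totals) in the knockout libraries and at 78.3 to 128 CPM in the overexpression libraries, in the direction of the labels. Keratinocyte markers were present in every library and 10 of the 14 were higher with overexpression, with a summed level of 2540 to 6100 CPM with knockout and 10200 to 15500 CPM with overexpression. All 12 fibroblast markers, by contrast, were lower with overexpression, and their summed level was 59100 to 86700 CPM with knockout and 307 to 520 CPM with overexpression. None of the 12 was at 0 in all libraries of a group. Markers of endothelium, mural cells, leukocytes, macrophages, and T and NK cells also had higher sums in every knockout library, and of the tested ones 5 of 6, 6 of 7, 5 of 6, 3 of 7 and 6 of 7 were lower with overexpression. The libraries labelled as 1 carcinoma line thus differed in genes that mark other cell types. Whether this RNA came from other cells or from the carcinoma cells cannot be told apart in bulk RNA, nor can fewer cells of a type and less RNA per cell.

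All 10 CXC chemokines passed the count filter and were tested (edgeR quasi-likelihood test over 18504 genes, Benjamini-Hochberg adjustment, threshold 0.05). With Sox2 overexpression, 4 fell, Cxcl1, Cxcl9, Cxcl12 and Cxcl14, and 1 rose, Cxcl16. The background was high, since 18.0% of all tested genes were lower and 13.6% higher at the same threshold, 31.6% together. The groups did not overlap for 5 of the 10 genes, the same as were called, where 50.9% of all tested genes had groups without overlap (26.5% with overexpression below and 24.4% above). The share of members without overlap was thus near the background. The median log2 fold change was -1.13 over the members and -0.02 over everything tested. Without overexpression replicate 1 the members' median was -2.08, and 6 of the 10 were lower. In that fit 2940 of the 18504 tested genes were lower, and the median over all of them was -0.04.

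**Figure D1:**
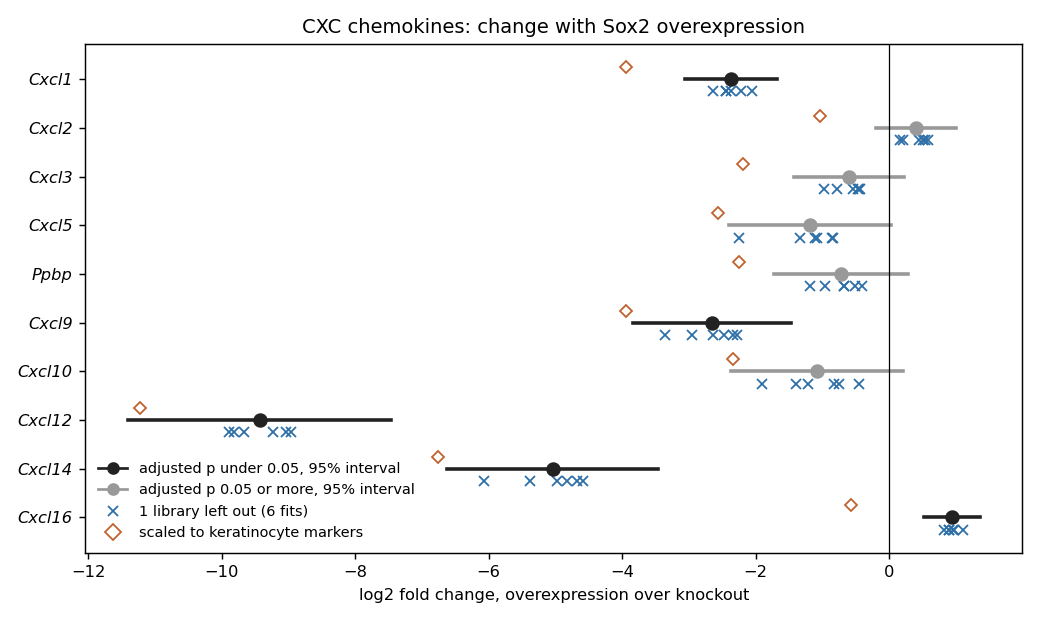
Log2 fold change of each CXC chemokine, overexpression over knockout (x axis), with its 95% interval (bar), the 6 values with 1 library left out (crosses) and the value after scaling to keratinocyte markers (diamond). Cxcl12 and Cxcl14 lie farthest to the left at -9.43 and -5.04, and Cxcl16 is the called gene to the right of 0, where its diamond is at -0.57.

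Among the ELR ligands, Cxcl1 was the gene that passed the threshold. It encodes the keratinocyte-derived chemokine KC, a main neutrophil attractant of the mouse. Its level was 123, 287 and 204 CPM in knockout replicates 1, 2 and 3 and 43.2, 31.7 and 43.8 CPM in overexpression replicates 1, 2 and 3. The lowest knockout library was well above the highest overexpression library, and the overexpression libraries lay close together. Cxcl1 was at 204 ± 81.9 CPM with knockout and 39.6 ± 6.86 CPM with overexpression (SD, n = 3 per group), and fell by 2.37 in log2 units (standard error 0.30, edgeR, adjusted p = 0.000473).

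Cxcl2, the close paralogue that encodes MIP-2, did not pass the threshold. Its level was 55.2, 53.0 and 32.5 CPM with knockout and 81.5, 45.9 and 59.2 CPM with overexpression. The groups overlapped, and the log2 fold change of 0.41 had a 95% interval from -0.19 to 1.00 (edgeR, adjusted p = 0.269). The interval of Cxcl1 ends at -1.68, below the lower bound for Cxcl2, so the 2 intervals do not meet. The difference between the 2 genes was not tested in the model, and their ratio within libraries is given further on.

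Cxcl3 and Ppbp were the least abundant ELR ligands. Cxcl3, which also binds Cxcr2, was at 2.96, 4.33 and 4.66 CPM with knockout and 3.85, 2.06 and 1.97 CPM with overexpression, a log2 fold change of -0.60 (95% interval -1.42 to 0.22, edgeR, adjusted p = 0.237). Ppbp, whose product is cut to the platelet chemokine NAP-2, was at 4.90, 2.51 and 4.08 CPM with knockout and 3.60, 2.17 and 1.21 CPM with overexpression, a log2 fold change of -0.72 (95% interval -1.73 to 0.28, edgeR, adjusted p = 0.244). In both genes overexpression replicate 1 reached into the range of the knockout libraries. The platelet markers Itga2b, Gp9, Gp1ba, Gp1bb, Gp5, Gp6 and Treml1 summed to 12.7 to 18.1 CPM with knockout and 9.58 to 12.5 CPM with overexpression, with Treml1 at 0 throughout. Itga2b made up most of this sum and was lower with overexpression (log2 fold change -0.76, edgeR, adjusted p = 0.0456), while the other 3 tested markers, Gp1ba, Gp1bb and Gp5, had log2 fold changes of 0.62, 2.92 and 0.56 and did not pass the threshold.

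Cxcl5, an epithelial neutrophil attractant known as LIX in the mouse, depended on overexpression replicate 1. Its level was 38.0, 39.6 and 26.6 CPM with knockout and 31.3, 7.002 and 7.59 CPM with overexpression. Replicate 1 of overexpression lay inside the knockout range and the other 2 libraries far below it. The log2 fold change was -1.18 (95% interval -2.39 to 0.03, edgeR, adjusted p = 0.127). Without that library it was -2.25 (adjusted p = 0.00032), and the overexpression mean went from 15.3 to 7.295 CPM. Cxcl5 also passed the threshold with no count filter (adjusted p = 0.00714), with the DESeq2 test (0.0495), with the replicate number as a block (0.0134) and after scaling to keratinocyte markers (9.32e-06), with adjusted p-values from 9.32e-06 to 0.308 over all 13 alternatives.

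**Figure D2:**
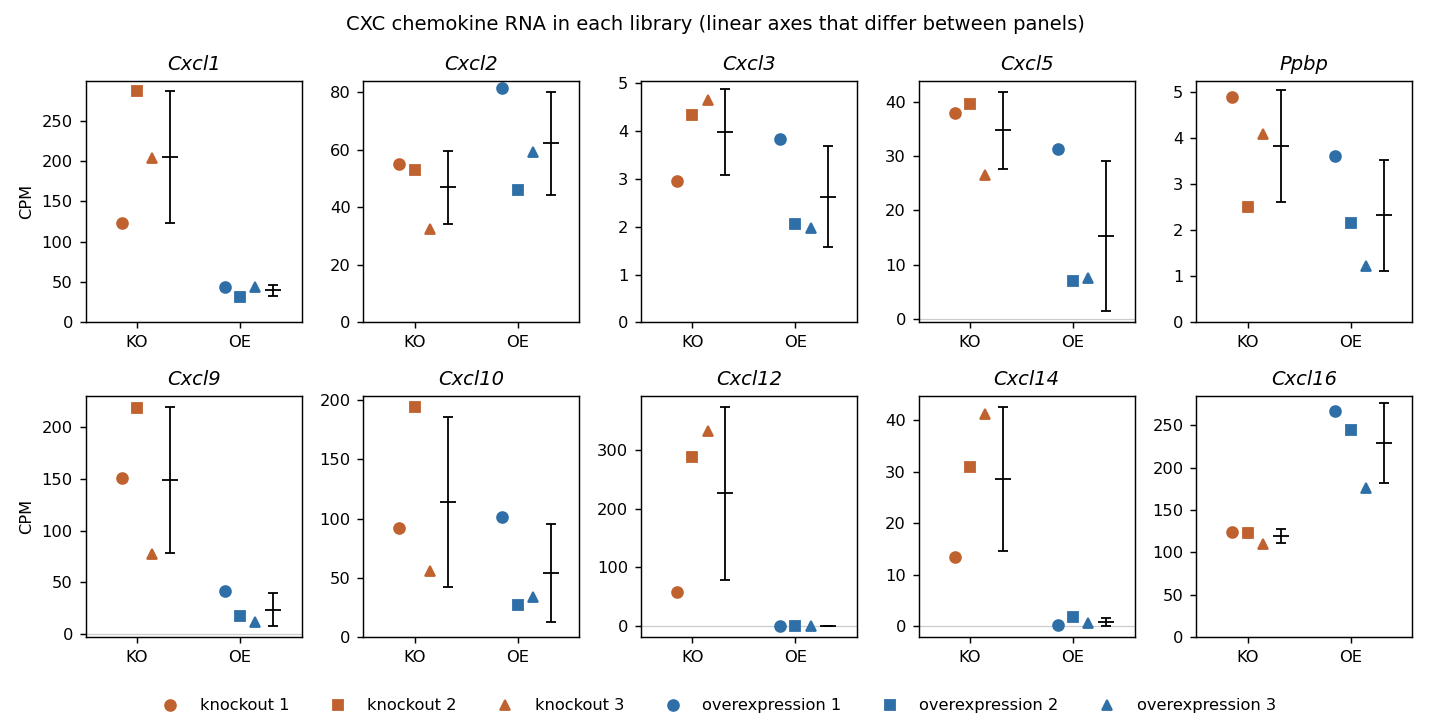
Level in CPM (y axis, linear, a different range in each panel) of the 10 CXC chemokines in knockout (KO) and overexpression (OE) libraries, with 1 marker shape per replicate and the mean ± SD in black. Overexpression replicate 1, the blue circle, is the highest of its group for Cxcl2, Cxcl3, Cxcl5, Ppbp, Cxcl9, Cxcl10 and Cxcl16.

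Of the interferon-inducible ligands, Cxcl9 fell and Cxcl10 did not pass the threshold, and the difference between them was not tested. Cxcl9 was at 151, 218 and 77.1 CPM with knockout and 41.9, 17.2 and 11.8 CPM with overexpression. Every overexpression library was below every knockout library, though knockout replicate 3 was nearer to the highest overexpression library than to the other knockout libraries. Cxcl9 was at 149 ± 70.7 CPM with knockout and 23.7 ± 16.1 CPM with overexpression (SD, n = 3 per group), and fell by 2.65 in log2 units (standard error 0.52, edgeR, adjusted p = 0.00479). Without overexpression replicate 1 the log2 fold change was -3.36 and the overexpression mean 14.5 CPM.

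Cxcl10 was at 92.0, 194 and 55.9 CPM with knockout and 101, 27.2 and 33.7 CPM with overexpression. Overexpression replicate 1 exceeded 2 of the 3 knockout libraries, and the groups overlapped. The log2 fold change of -1.08 had a 95% interval from -2.37 to 0.21 (edgeR, adjusted p = 0.183). Without overexpression replicate 1 it was -1.91 (adjusted p = 0.0187), and the overexpression mean went from 54.1 to 30.4 CPM. Without knockout replicate 2 it was -0.45 (adjusted p = 0.586), and the knockout mean went from 114 to 73.9 CPM. Cxcl10 passed the threshold with no count filter (adjusted p = 0.0169) and after scaling to keratinocyte markers (2.89e-05), and its adjusted p was between 2.89e-05 and 0.586 over the 13 alternatives. Art3, on the other strand, is at 1.29 CPM with overexpression and 5.41 CPM with knockout, and shares 4.47% of the 31-base words of Cxcl10.

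Among the 10 genes, the largest changes were those of Cxcl12 and Cxcl14. Cxcl12, also called stromal cell-derived factor, was at 58.7, 287 and 333 CPM with knockout and 0.0610, 0.507 and 0.405 CPM with overexpression. These overexpression levels rest on 2, 15 and 16 counts, and that of replicate 1 is under the 3 counts that a count of 0 allows, 0.0915 CPM in that library. The means were 226 ± 147 and 0.324 ± 0.234 CPM (SD, n = 3 per group), and Cxcl12 fell by 9.43 in log2 units (standard error 0.87, edgeR, adjusted p = 6.88e-05). The knockout libraries themselves spread widely, with replicate 1 at the low end.

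Cxcl14 had the same order among the knockout libraries, at 13.5, 30.98 and 41.2 CPM in replicates 1, 2 and 3. With overexpression it was at 0.214, 1.83 and 0.607 CPM. Cxcl14 was at 28.6 ± 13.97 CPM with knockout and 0.882 ± 0.841 CPM with overexpression (SD, n = 3 per group), and fell by 5.04 in log2 units (standard error 0.69, edgeR, adjusted p = 0.000726). Without overexpression replicate 2 the log2 fold change was -6.07 and the overexpression mean 0.410 CPM. The summed fibroblast markers moved in the same direction as both genes, at 59100 to 86700 CPM with knockout and 307 to 520 CPM with overexpression, and their part in the fall was not tested.

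Cxcl16 was the ligand that rose. Its level was 125, 123 and 110 CPM with knockout and 267, 244 and 177 CPM with overexpression. The knockout libraries were within a narrow range and all overexpression libraries were above it. Cxcl16 averaged 119 ± 8.07 CPM with knockout and 229 ± 47.1 CPM with overexpression (SD, n = 3 per group), and rose by 0.94 in log2 units (standard error 0.18, edgeR, adjusted p = 0.00457). Scaling the libraries to keratinocyte markers moved the median over everything tested to -1.59 in log2 units and turned Cxcl16 to -0.57 (adjusted p = 0.263), while under the other 12 alternatives it stayed higher past the threshold. Zmynd15 on the other strand contains 18.5% of the 31-base words of Cxcl16. It was at 12.9 CPM with knockout and 6.41 CPM with overexpression, and so was lower in the group in which Cxcl16 was higher. The strand setting of the counting is not given in the sources used here, and without strand the reads of such overlapping genes cannot be told apart.

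The make-up of CXC chemokine RNA within a library does not depend on how libraries are scaled to each other. It was computed from counts per kilobase of the longest annotated transcript, over the sum of the 10 genes. The shares of a library have a fixed sum, so a fall in some ligands raises the shares of the others. Cxcl1 made up 34.4%, 43.3% and 47.9% of that sum in the knockout libraries and 14.9%, 18.1% and 25.5% in the overexpression libraries. Cxcl16 made up 9.33% ± 2.89 with knockout and 39.3% ± 8.77 with overexpression (SD, n = 3 each) and Cxcl16 was the leading ligand there. In CPM its mean was 1.93-fold higher with overexpression. That Cxcl1 led with knockout holds per kilobase only: on plain counts Cxcl9 led knockout replicate 1 at 22.8% and Cxcl12 led replicates 2 and 3 at 23.2% and 37.4%. Cxcl12 and Cxcl14 held 7.79% ± 5.23 and 3.15% ± 1.65 with knockout, and 0.0308% ± 0.0240 and 0.255% ± 0.260 with overexpression (SD, n = 3 each). The share of Cxcl12 with knockout was 5.07% without knockout replicate 3 and 23.1% on plain counts, and that of Cxcl14 with overexpression was 0.111% without overexpression replicate 2. The 5 ELR genes together held 53.4% ± 3.56 with knockout and 40.6% ± 6.08 with overexpression (SD, n = 3 each). The groups of this sum did not overlap per kilobase but did on plain counts, with means of 31.8% and 28.5%.

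**Figure D3:**
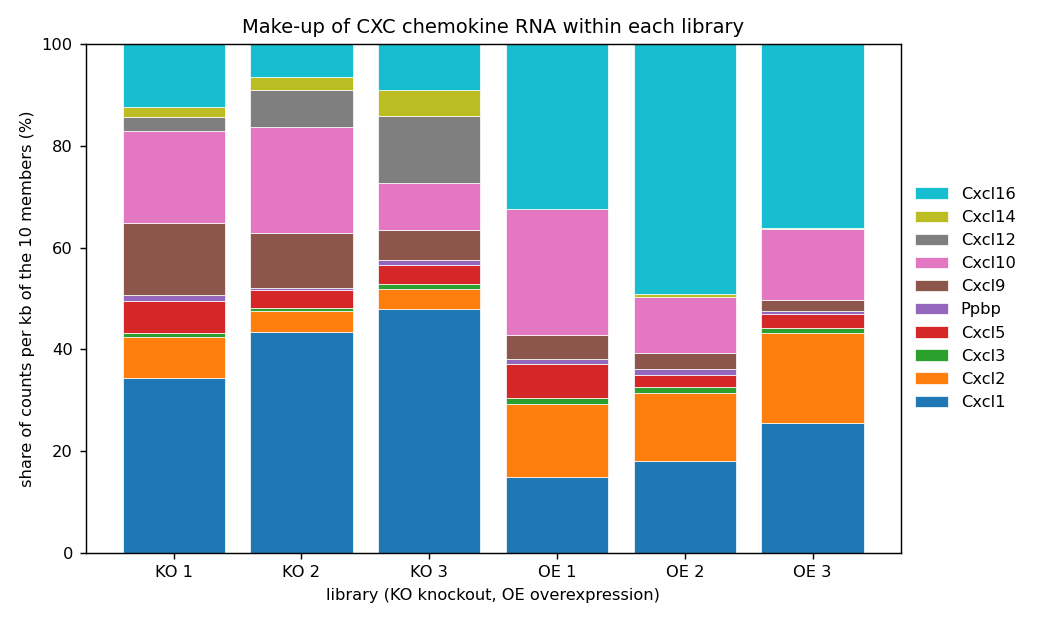
Share of each CXC chemokine in the counts per kilobase of the 10 genes (y axis, percent) in each knockout (KO) and overexpression (OE) library. Cxcl1 is the largest part of every knockout library (34.4% to 47.9%) and Cxcl16 the largest part of every overexpression library (32.5% to 49.2%).

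Among the ELR genes alone, the share of Cxcl1 was lower and that of Cxcl2 higher with overexpression. Cxcl1 held 67.8%, 83.3% and 83.4% of the ELR counts per kilobase with knockout and 39.1%, 50.03% and 53.7% with overexpression. Cxcl2 held 15.6%, 7.91% and 6.79% with knockout and 37.7%, 37.2% and 37.2% with overexpression. Neither pair of groups overlapped, and the 3 overexpression libraries were nearly equal for Cxcl2. Shares within a library have a fixed sum, so a lower level of Cxcl1 alone raises the share of Cxcl2. In CPM Cxcl2 did not pass the threshold, and 50.9% of all tested genes had groups without overlap. With the lengths used, 953 bases for Cxcl1 and 1859 for Cxcl2, Cxcl1 stayed above Cxcl2 per kilobase in every library. In overexpression replicate 1 the levels were close, at 45.4 and 43.8 CPM per kilobase. On plain counts Cxcl2 was above Cxcl1 with overexpression (means of 51.2% and 33.5%). The order with overexpression thus depends on the lengths, and a shorter transcript of Cxcl2 would raise its value per kilobase. With 3 libraries against 3, an exact two-sided permutation test cannot go below p = 0.1, so no test was made of these shares. In the GENCODE M21 transcripts Cxcl1 shares no 31-base word with another gene, whereas Cxcl2 shares 7.59% of its words with Cxcl3, so reads of Cxcl2 and Cxcl3 could have been divided between them.

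Per kilobase, the knockout libraries were led by Cxcl1 at 215 ± 85.9 CPM per kilobase (SD, n = 3), followed by Cxcl10 at 84.3, Cxcl9 at 51.5, Cxcl16 at 44.1, Cxcl12 at 40.2, Cxcl2 at 25.2, Cxcl5 at 22.0 and Cxcl14 at 15.6 CPM per kilobase. Neighbours in the order overlapped among these 8 genes. Cxcl3 at 3.92 and Ppbp at 3.54 CPM per kilobase lay below all of them and overlapped each other. In the overexpression libraries Cxcl16 led at 85.0 ± 17.5 CPM per kilobase (SD, n = 3), above the range of the next by mean, Cxcl1, while Cxcl10 reached 75.0 CPM per kilobase in 1 library, inside the range of Cxcl16 (65.4 to 99.0). The means of Cxcl1, Cxcl10 and Cxcl2 were 41.5, 40.0 and 33.5 CPM per kilobase, with overlapping ranges. The place of Cxcl2 depends on the transcript length used for it, 1859 bases. Cxcl5 and Cxcl9 at 9.71 and 8.19, Cxcl3 and Ppbp at 2.59 and 2.15, Cxcl14 at 0.483 and Cxcl12 at 0.0577 CPM per kilobase followed in steps without overlap, apart from the 2 pairs named together.

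Since the libraries differed in markers of other cell types, each ligand was also set against marker counts of its own library, an alternative added after the data were seen. Per 10000 counts of the 12 fibroblast markers, Cxcl12 had 9.94, 33.1 and 40.9 counts with knockout and 1.99, 13.99 and 7.79 counts with overexpression. On this scale the groups of Cxcl12 overlapped, and the ratio of the means was 3.53, knockout over overexpression. Cxcl14 had 2.29, 3.57 and 5.06 counts with knockout and 6.95, 50.4 and 11.7 counts with overexpression, so its direction was the opposite of that in CPM. The other 8 ligands were also above the knockout libraries in every overexpression library, with means that were 34.3 times (Cxcl9) to 386 times (Cxcl16) those of knockout.

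Per 10000 counts of the 14 keratinocyte markers, 9 of the 10 ligands were lower in every overexpression library. Cxcl16 was the exception, with 243, 202 and 433 counts under knockout and 262, 221 and 114 counts under overexpression, which overlap. In the fit scaled to these markers, 13577 of 18504 tested genes were lower and 226 higher past the threshold. The 9 ligands thus moved as most genes did. Cxcl1 had 505 ± 284 counts with knockout and 33.1 ± 8.03 with overexpression (SD, n = 3 each). Cxcl2, not called in the fit, had 108, 87.0 and 128 counts with knockout and 79.8, 41.5 and 38.2 with overexpression, so here it was lower in every overexpression library. Cxcl1, Cxcl9, Cxcl12 and Cxcl14, lower in CPM, were also lower against keratinocyte markers. Against fibroblast markers Cxcl1, Cxcl9 and Cxcl14 were higher and Cxcl12 overlapped. The marker sums themselves fell (fibroblast, 59100 to 86700 against 307 to 520 CPM) or rose (keratinocyte, 2540 to 6100 against 10200 to 15500 CPM). Any gene that fell less than the fibroblast markers comes out higher, and any that rose less than the keratinocyte markers comes out lower. These directions therefore say little about the ligands, and the share over all genes was not computed on the fibroblast scale. These ratios show unequal change of ligand and markers, not which of the 2 changed.

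**Figure D4:**
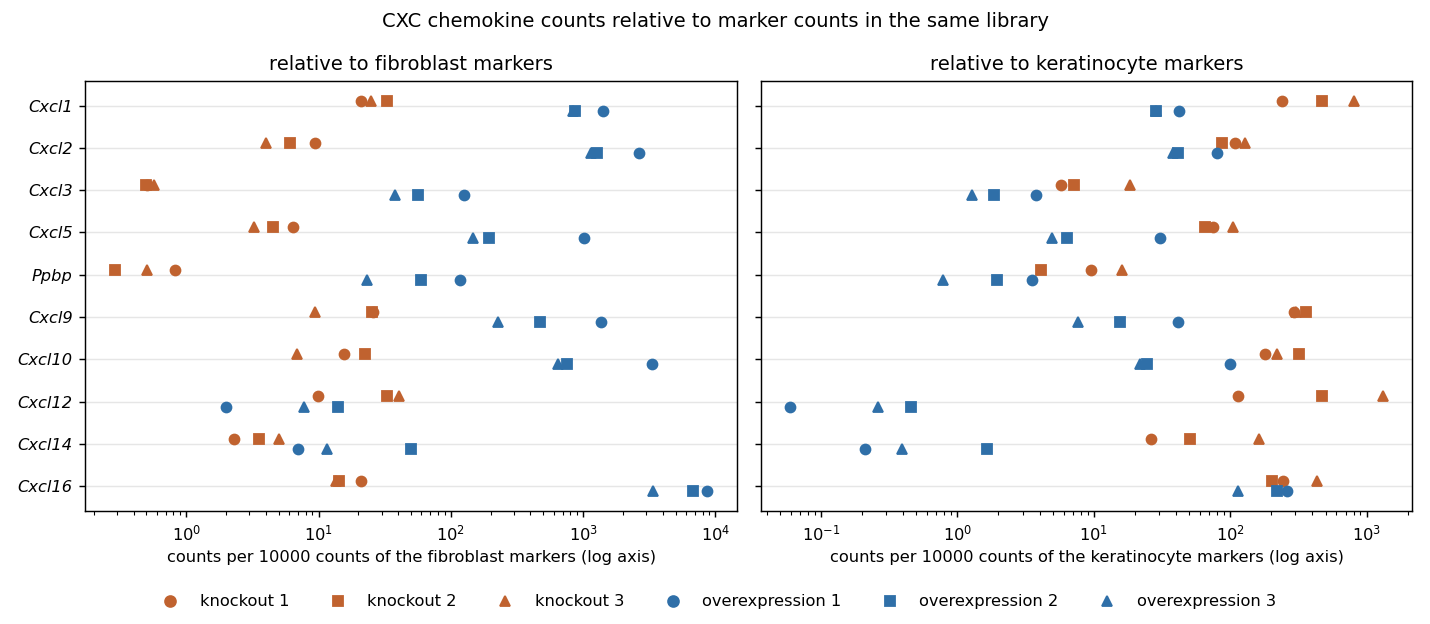
Counts of each CXC chemokine per 10000 counts of the fibroblast markers (left) or keratinocyte markers (right) of the same library, on log axes, with 1 point per library. Against fibroblast markers 9 ligands are higher in every overexpression library and Cxcl12 overlaps, and against keratinocyte markers 9 are lower and Cxcl16 overlaps. The marker counts themselves differ between the groups.

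Markers of leukocytes varied within the knockout group. The 6 leukocyte markers summed to 42.4, 76.7 and 297 CPM in knockout replicates 1, 2 and 3, and to 8.5 to 11.9 CPM with overexpression, and the 8 T and NK cell markers to 10.02, 19.9 and 105 CPM, against 1.01 to 1.95 CPM. Knockout replicate 3, the highest for both lists, was the lowest of its group for Cxcl9 and Cxcl10. Macrophage markers summed to 81.3 to 102 CPM with knockout and 48.0 to 54.0 CPM with overexpression. Of the 9 neutrophil markers, S100a8 and S100a9 reached 70 and 14 counts with knockout and at most 1 with overexpression, and Elane and Retnlg at most 1 anywhere. Of the 3 tested ones, Csf3r was lower (log2 fold change -2.46, edgeR, adjusted p = 0.0232), Ly6g did not pass the threshold (1.14, adjusted p = 0.184) and Ltf was higher. The neutrophil sum was higher with overexpression, 585 to 3090 CPM, of which Ltf, the lactoferrin gene that glandular epithelium also expresses, was 583 to 3081 CPM. The part of these cells in the values of the ligands was not tested.

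**Figure D5:**
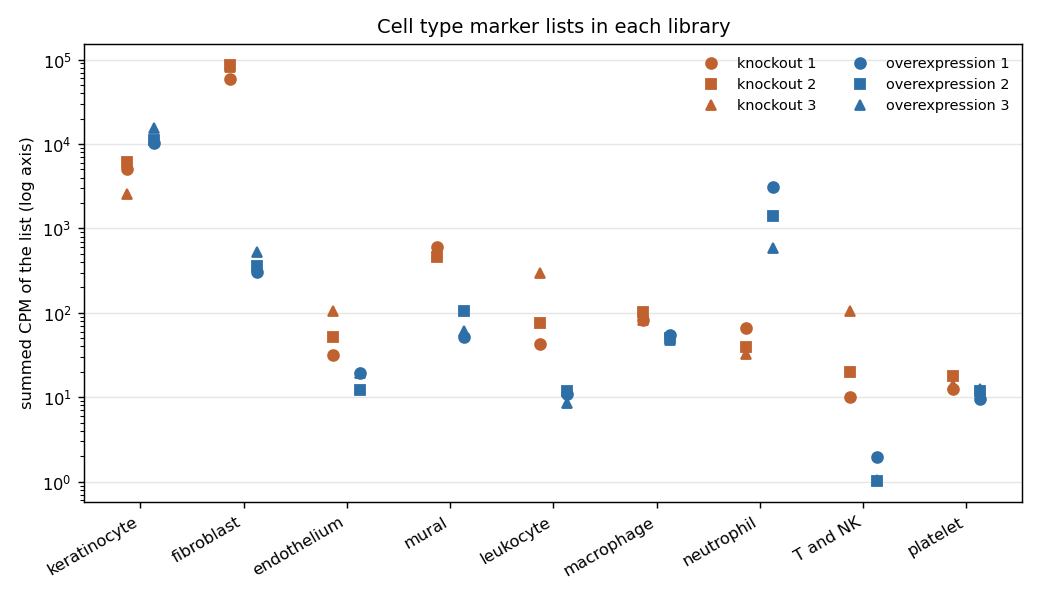
Summed CPM (y axis, log) of each cell type marker list in every library, knockout in orange and overexpression in blue. Fibroblast markers differ most between the groups (59100 to 86700 against 307 to 520 CPM), and keratinocyte markers are high in both.

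The other CXC ligand genes were scarce. Cxcl13, the B cell attractant, had 33, 160 and 238 counts in the knockout libraries and 0 in each overexpression library, and was at least 42.0-fold lower relative to 3 counts per library (edgeR, adjusted p = 0.00175). Cxcl17, a chemokine of mucosal epithelium, had 3, 0 and 0 counts with knockout and 213, 118 and 65 with overexpression. The ratio of its pooled levels was 131, with a 95% interval of 44.4 to 636 that covers counting error only (edgeR, adjusted p = 0.000672). Cxcl11, a polymorphic pseudogene in this annotation that lies beside Cxcl10, was at 1.78 ± 0.733 CPM with knockout and 1.02 ± 0.988 CPM with overexpression (SD, n = 3 each; edgeR, adjusted p = 0.405). It passed the threshold without overexpression replicate 1 (log2 fold change -1.95) and after scaling to keratinocyte markers (-2.12). Pf4, the platelet factor, and Cxcl15 did not pass the count filter, with at most 17 and 14 counts in a library.

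Receptors and scavengers of CXC ligands were mostly low. Of 8 genes, 6 were tested, 4 were lower and 0 higher past the threshold, and Cxcr1 and Cxcr5 did not pass the filter. Leaving out any single library gave 4 and 0 again. Over everything tested 18.0% were lower and 13.6% higher, and the median log2 fold change of the 6 receptor and scavenger genes was -2.54. Ackr3, a scavenger receptor of Cxcl12, was the most abundant, and was at 212 ± 50.2 CPM with knockout and 111 ± 14.1 CPM with overexpression (SD, n = 3 per group), and fell by 0.93 in log2 units (edgeR, adjusted p = 0.00871). Cxcr4, the signalling receptor of Cxcl12, had 33, 89 and 330 counts with knockout and 3, 3 and 1 with overexpression, a ratio of 65.2 (95% counting interval 31.4 to 163; edgeR, adjusted p = 0.0019). Its log2 fold change was -5.88, and -4.72 without knockout replicate 3. Ackr1, known from endothelium and red cells, had 81, 165 and 234 counts with knockout and 0, 0 and 1 with overexpression (ratio 485, counting interval 86.6 to 19200), where the single count was in replicate 3. Cxcr6, the receptor of Cxcl16, had 32, 51 and 152 counts with knockout and 4, 2 and 7 with overexpression, a log2 fold change of -4.14 (edgeR, adjusted p = 0.00205), which was -3.33 without knockout replicate 3. Cxcr4 and Cxcr6 were both highest in knockout replicate 3, as were the leukocyte and T and NK cell markers.

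Cxcr2, the receptor of the ELR ligands, had 61, 80 and 50 counts with knockout and 28, 45 and 44 with overexpression. Its log2 fold change of -0.73 had a 95% interval of -1.62 to 0.16 (edgeR, adjusted p = 0.189). Cxcr3, the receptor of Cxcl9 and Cxcl10, was at 5.46 ± 0.982 CPM with knockout and 8.96 ± 6.30 CPM with overexpression (SD, n = 3 each; edgeR, adjusted p = 0.265), and without overexpression replicate 2 its log2 fold change went from 0.71 to -0.01.

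Genes that induce the ELR ligands were next compared. Of 21 cytokine and Toll-like receptors, adaptors, kinases and NF-kB subunits, 3 were higher and 3 lower, with a median log2 fold change of 0.01. Among all tested genes 13.6% were higher and 18.0% lower, so calls in this list were not more frequent than the background. Il1r1, the receptor of interleukin-1, had the smallest p-value, was at 116 ± 17.0 CPM with knockout and 52.6 ± 9.48 CPM with overexpression (SD, n = 3 per group), and fell by 1.14 in log2 units (edgeR, adjusted p = 0.00185). Il17ra and Il1rap, subunits of the interleukin-17 and interleukin-1 receptors and named after their values were seen, were the other 2 that fell, by 1.20 and 1.51 on the log2 scale. Traf3ip2, the adaptor Act1 of the interleukin-17 receptor, was at 38.7 ± 4.22 CPM with knockout and 58.6 ± 4.79 CPM with overexpression (SD, n = 3 per group), and rose by 0.60 in log2 units (edgeR, adjusted p = 0.0152). Leaving out knockout replicate 2 gave an adjusted p of 0.076, the highest of a range that began at 0.00342 over the alternatives, and the direction turned under the keratinocyte scaling (-0.95). Tlr2, a Toll-like receptor, and Irak1, a kinase downstream of it, also named after their values were seen, were the other 2 that rose, by 1.07 and 0.48 in log2 units (edgeR, adjusted p = 0.0183 and 0.0495). Both turned under the keratinocyte scaling (-0.39 and -1.06), and their adjusted p-values were 0.000368 to 0.477 and 0.0229 to 0.166 over the alternatives. The count of higher genes was 1, 1 and 0 without knockout replicate 1, 2 and 3. The NF-kB subunit genes Rela, Nfkb1 and Nfkb2 had log2 fold changes of 0.022, 0.21 and 0.0060 and did not pass the threshold.

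A further list held regulators of NF-kB, mostly inhibitors but also the co-activators Nfkbiz and Bcl3, and RNA-binding factors that destabilise such mRNAs or, like Elavl1, stabilise them. Of these 13 genes, 3 were higher and 4 lower, beside 13.6% and 18.0% of all tested genes, with a median log2 fold change of 0.03. Tnip1, a partner of the deubiquitinase A20, was at 66.7 ± 6.13 CPM with knockout and 120 ± 13.5 CPM with overexpression (SD, n = 3 per group), and rose by 0.85 in log2 units (edgeR, adjusted p = 0.00299), which was -0.75 under the keratinocyte scaling. Zfp36l1, an RNA-binding protein of the tristetraprolin family, was at 476 ± 127 CPM with knockout and 257 ± 35.6 CPM with overexpression (SD, n = 3 per group), and fell by 0.89 in log2 units (edgeR, adjusted p = 0.0168). Its adjusted p was 0.0696 without knockout replicate 2 (3.9e-06 to 0.0696 over the alternatives). The counts of this list depended on single libraries, with 0 lower without knockout replicate 2, 2 lower without knockout replicate 3, 1 lower without overexpression replicate 2 or 3, and 1 higher without knockout replicate 1 or 3.

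In the interferon arm, which induces Cxcl9 and Cxcl10, 13 of 14 genes were tested. The ligand gene Ifng did not pass the filter, with 13, 9 and 59 counts in the knockout libraries and at most 1 with overexpression. There were 5 lower genes and 1 higher gene, beside 18.0% and 13.6% of all tested genes, with a median log2 fold change of -0.11. Ifnar2, a subunit of the type I interferon receptor, was at 49.8 ± 7.67 CPM with knockout and 23.1 ± 1.80 CPM with overexpression (SD, n = 3 per group), and fell by 1.11 in log2 units (edgeR, adjusted p = 0.00113). Irf9, a transcription factor downstream of that receptor, was at 70.9 ± 3.58 CPM with knockout and 112 ± 14.6 CPM with overexpression (SD, n = 3 per group), and rose by 0.65 in log2 units (edgeR, adjusted p = 0.0105), and was at -0.88 under the keratinocyte scaling. The count of lower genes was 2 without knockout replicate 2, and 3 without knockout replicate 3 or any 1 overexpression library. Irf1, a transcription factor induced by interferon, had a log2 fold change of 0.37 and did not pass the threshold.

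Proteases that shed or trim CXC ligands gave 5 lower genes and 0 higher among 6, in the fit of all libraries and in each fit without 1 library. Their median log2 fold change was -3.26, and over all tested genes 18.0% were lower and 13.6% higher. Mmp2, a gelatinase that cleaves Cxcl12, had the smallest p-value, was at 1198 ± 313 CPM with knockout and 6.32 ± 1.86 CPM with overexpression (SD, n = 3 per group), and fell by 7.56 in log2 units (edgeR, adjusted p = 1.98e-06). Adam10, a sheddase of Cxcl16, did not pass the threshold (log2 fold change -0.15, edgeR, adjusted p = 0.667), while Adam17, also a sheddase, had a log2 fold change of -0.87 (edgeR, adjusted p = 0.0068). Fibroblast markers moved in the same direction as Mmp2, at the levels given above, and their part was not tested.

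For each called ligand, the tested genes whose log2 CPM, centred on its mean over the 6 libraries, differed least from that of the ligand were found among 8457 genes with an average log2 CPM of at least 4. The measure is the root mean square difference. For Cxcl1 these were Plagl1 (0.206) and Lamc1 (0.221), with 70 genes under 0.5. Cxcl9 was followed less closely, by Spats2l (0.365) and Mgst1 (0.47), and 3 genes in all were under 0.5. For Cxcl12 they were Cd248 (0.468), a gene of fibroblasts and pericytes, and Cadm3 (0.47), and for Cxcl14 Lsp1 (0.556) and Trf (0.582). Cxcl16 had Endod1 (0.0291) and Insl6 (0.0747), and 4687 genes were under 0.5, since its change is small. All 6 libraries fall into 2 groups, so these distances mostly reflect the difference between the groups.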

How the data were processed

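RNA was sequenced in bulk from 6 libraries, after a low-input kit, per the labels' protocols. The deposited table gives whole-number counts, 1 row a gene and 1 column a library. The submitters' processing notes name kallisto 0.44.0 and the build mm10, with no role or order. Annotation, strand setting and filters are not given in the sources used here. Of 55481 rows, 96 name no mouse gene (at most 2.23e-05% of counts) and were left out. Symbols came from GENCODE M21 for 55144 gene IDs. The filter was filterByExpr (at least 10 counts, total at least 15), scaling was by TMM, and the test was quasi-likelihood in edgeR 4.0.16 (R 4.3.3), with the group as the only term. The standard error is the log2 fold change divided by the square root of F. The fit was tested on simulated data.

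The members, gene lists and tests were chosen with earlier results of these data known. The text names all members, all tested other CXC ligands and receptors, in each further list the called gene of lowest p on either side, and for each called member the 2 genes with the most similar profile. Alternatives were RLE and upper-quartile normalization, scaling to keratinocyte markers, no filter, robust dispersion, DESeq2 1.42.0, the replicate number as a block and leaving out each library. A count of 0 allows up to 3 counts, 0.0759 to 0.101 CPM, for counting error only. The labels give no batch.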

Additional observations from a re-analysis of the deposited data

How the results depend on the processing

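Scaling to keratinocyte markers changed most. It called 13803 genes (1.64% of them higher, 98.4% lower, against 43.1% and 56.9%), with 0 members higher and 9 lower, and reversed Cxcl2 (-1.03, adjusted p = 0.0486) and Cxcl16 (-0.57). The cause was not tested. Under the other 12 alternatives 1 member was higher and 4 to 6 lower. The 5 called members stayed past the threshold in all 6 fits that left out a library. In these the count of all called genes went from 4114 to 5696, and the count of higher genes, 2519 in the fit of all libraries, fell to 1412 without knockout replicate 2 and 1598 without knockout replicate 3. The replicate number as a block gave 5593 called genes and 5 lower members, adding Cxcl5 (log2 fold change -1.52). Deviations of same-numbered libraries correlated across genes at 0.051, 0.022 and -0.04, and those of differently numbered ones at -0.067 to 0.05. These values show no sign of pairing, but cannot tell whether libraries of the same number share a batch or host. Leaving out a library moved 3 shares per kilobase by over 1.5 times: Cxcl12 with knockout and Cxcl14 with overexpression, given with the shares, and Cxcl5 with overexpression (3.87%, and 2.54% without overexpression replicate 1). On plain counts without length, Cxcl1 held 21.5% and 9.62%, Cxcl12 23.1% and 0.0881%, and Cxcl16 13.7% and 54.4%, of knockout and overexpression libraries. Depth limits Cxcl12 and Cxcl14 with overexpression and the low receptors.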
